A study of Mus musculus with 16 samples.

Results

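The G1 cyclins and CDK inhibitors examined here are 10 mouse genes, each chosen by its symbol: the D cyclins Ccnd1, Ccnd2 and Ccnd3, the E cyclins Ccne1 and Ccne2, the later cyclins Ccna2 and Ccnb1, and the inhibitors Cdkn1b, Cdkn2a and Cdkn2b. All 10 were found among the 24320 gene names common to the 3 deposited tables. RNA was sequenced from mouse embryonic stem (ES) cells labelled E14Tg2a.IV, strain C57BL/6, grown without feeder cells in serum and leukemia inhibitory factor, in 16 libraries that form 8 groups of 2. In the Pml table, untreated Pml KO cells were set against untreated wild-type cells. In the arsenite table, wild-type cells given 200 µM sodium arsenite, an oxidative stressor, for 2 h were set against untreated wild-type cells. In the Trim33 table, cells labelled Trim33 KO or WT were treated for 2 h with activin A at 50 ng/ml, which signals through SMAD2 and SMAD3, or with the activin receptor kinase inhibitor SB431542 at 10 µM. The labels do not say how either knockout was made, whether it is 1 clone, or whether the libraries of 1 group are separate cultures. The p-values therefore reflect only how these libraries scatter, which may be technical. A second ES line, CCE, is named in the growth protocol but tied to no sample.

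D cyclins pair with CDK4 and CDK6 and begin to inactivate the RB family of pocket proteins, which releases E2F transcription factors. Cyclin E with CDK2 completes that step and starts DNA replication, cyclin A2 acts in S phase and G2, and cyclin B1 with CDK1 drives mitosis. KIP1, the product of Cdkn1b, binds cyclin-CDK complexes, INK4B from Cdkn2b and INK4A from Cdkn2a block CDK4 and CDK6, and Cdkn2a also encodes ARF, which stabilises p53 by binding MDM2. Mouse ES cells are known for a short G1 phase, high cyclin E-CDK2 activity and low D cyclin and INK4 levels compared with differentiated cells.

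Cdkn2a and Cdkn2b lie side by side on the minus strand of chromosome 4, Cdkn2a at positions 89274471 to 89294653 and Cdkn2b at 89306299 to 89311039 (GENCODE, GRCm38), with 11645 bases between them. Cdkn2a has 2 annotated transcripts, 1 from an upstream start that gives ARF and 1 from a downstream start that gives INK4A. The deposited tables hold 1 value per gene, so the 2 products cannot be told apart. The sequences printed are the 250 bases upstream of each start of these neighbours, which both rose in Pml KO and with arsenite, and of Ccne1, which fell in both. They are RefSeq sequences of GRCm38.p6, 5′ to 3′ on the gene's strand, and capitals mark every match on either strand to 5 motifs.
Cdkn2a, ARF start, chr4:89294620-89294869, minus strand: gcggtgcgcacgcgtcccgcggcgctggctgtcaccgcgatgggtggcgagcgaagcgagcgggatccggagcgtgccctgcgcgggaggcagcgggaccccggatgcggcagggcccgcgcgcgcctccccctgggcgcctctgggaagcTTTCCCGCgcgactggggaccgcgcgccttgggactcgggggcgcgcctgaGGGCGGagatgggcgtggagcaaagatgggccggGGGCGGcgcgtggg
Cdkn2a, INK4A start, chr4:89282193-89282442, minus strand: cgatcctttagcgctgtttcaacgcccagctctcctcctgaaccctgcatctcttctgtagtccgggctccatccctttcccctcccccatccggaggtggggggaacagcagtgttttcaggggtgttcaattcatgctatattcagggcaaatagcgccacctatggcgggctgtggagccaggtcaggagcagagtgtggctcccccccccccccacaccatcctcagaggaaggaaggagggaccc
Cdkn2b, chr4:89311033-89311282, minus strand: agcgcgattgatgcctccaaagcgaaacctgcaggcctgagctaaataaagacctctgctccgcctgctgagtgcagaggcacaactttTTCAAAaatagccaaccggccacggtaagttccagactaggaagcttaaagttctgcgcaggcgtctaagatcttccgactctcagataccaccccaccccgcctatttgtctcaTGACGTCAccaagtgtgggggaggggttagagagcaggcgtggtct
Ccne1, chr7:38107491-38107740, minus strand: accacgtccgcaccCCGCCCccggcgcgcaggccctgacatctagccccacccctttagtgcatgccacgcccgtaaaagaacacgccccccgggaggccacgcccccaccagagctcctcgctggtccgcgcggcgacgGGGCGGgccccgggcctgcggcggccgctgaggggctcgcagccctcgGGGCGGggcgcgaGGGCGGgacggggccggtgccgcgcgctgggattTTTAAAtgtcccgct

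The motifs were the E2F words TTTCCCGC, TTTCGCGC, TTTGCCGC and TTTGGCGC, the GC box GGGCGG, the CCAAT box, the cAMP response element TGACGTCA, and the cell cycle homology region words TTTGAA and TTTAAA. No marked matches of different motifs overlapped in the printed windows. The ARF window of Cdkn2a held 1 E2F word and 2 GC boxes, and its INK4A window held none of the 5 motifs. The Cdkn2b window held 1 cAMP response element and 1 cell cycle homology word, and the Ccne1 window held 4 GC boxes and 1 cell cycle homology word. Among 32851 upstream windows of the same length, 1.9% held an E2F word, 1.5% the cAMP response element, 32.7% a GC box and 25.2% a cell cycle homology word. These are matches of letters, not sites known to be bound. GC made up 78.4% of the ARF window, 60.0% of the INK4A window, 53.6% of the Cdkn2b window and 76.0% of the Ccne1 window, against a median of 52.4% over all windows. RefSeq windows were matched for 6 of the 10 members. Ccna2, Ccnd1, Ccnd2 and Ccne2 were not among them. Cdkn1b was also lower in Pml KO and with arsenite, and its matched window is not printed. That window held 1 GC box, 2 CCAAT boxes and 1 cell cycle homology word.

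Values are FPKM in the Pml table and RPKM in the others, both scaled for gene length and library size, so levels can be set beside each other between genes of 1 table. Low values gave a depth of 46700000 to 48400000 reads for the arsenite table's libraries and 31100000 to 39400000 for those of the Trim33 table, while the depth of the Pml table is unknown. Pml read 32.0 and 33.5 FPKM in Pml KO libraries, against 49.8 and 45.1 FPKM in wild type, a direction that followed the labels without a loss of the transcript. Trim33 followed the labels under activin A, with 2.53 and 2.79 RPKM in KO libraries and 20.1 and 23.5 RPKM in WT libraries. It went against them under SB431542, with 18.3 and 24.6 RPKM in the libraries labelled KO and 2.94 and 2.44 RPKM in the libraries labelled WT. The Y-linked gene Eif2s3y split the same way, at 0 to 0.0651 RPKM in KO with activin A, 38.3 and 41.0 in WT with activin A, 40.0 and 38.5 in the libraries labelled KO with SB431542, and 0.143 and 0.0647 in those labelled WT with SB431542. Every direction between genotype labels under SB431542 therefore rests on labels that Trim33 contradicts. Eif2s3y was also lower in Pml KO (1.102 and 0.753 FPKM) than in wild type (16.2 and 20.6 FPKM), so another difference between these lines cannot be told apart from the knockout. The same limit holds in the Trim33 table, where Eif2s3y was near 0 in every library with low Trim33. The ES cell markers Pou5f1, Nanog, Sox2 and 5 others were all detected, with summed levels of 7693 to 8101 FPKM in the Pml table and 2723 to 5248 RPKM in the others.

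**Figure D1:**
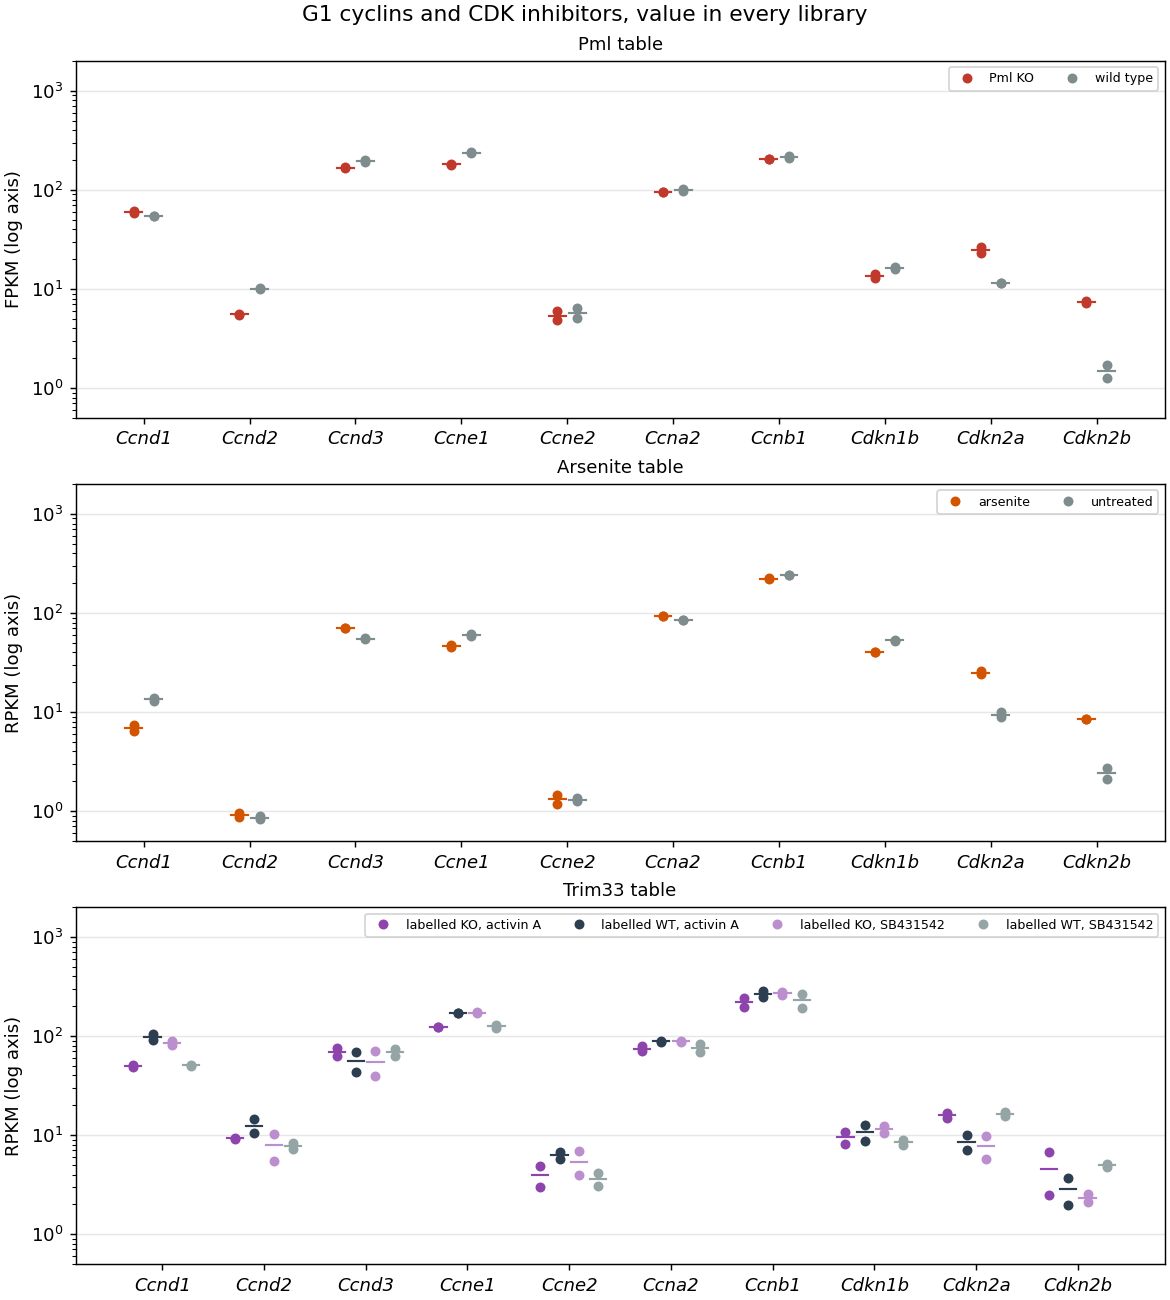
Value of each member in every library (points, log axis) with the group mean (line), in FPKM for the Pml table and RPKM for the arsenite and Trim33 tables. Cdkn2a and Cdkn2b sit higher with Pml KO and with arsenite than in their controls, and Ccnd2 sits near 10 FPKM in wild type of the Pml table but under 1 RPKM in every library of the arsenite table.

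The order of levels was led by cyclin transcripts in each table, with Ccne2 and Cdkn2b among the lowest. In wild-type libraries of the Pml table, Ccne1 was highest at 238 ± 0.901 FPKM, followed by Ccnb1 at 213 ± 6.50, Ccnd3 at 196 ± 8.40, Ccna2 at 99.9 ± 2.03 and Ccnd1 at 54.7 ± 0.125 (SD, n = 2 each). Below these stood Cdkn1b at 16.4 ± 0.636 FPKM, Cdkn2a at 11.4 ± 0.0214, Ccnd2 at 10.1 ± 0.0666, Ccne2 at 5.74 ± 0.885 and Cdkn2b at 1.49 ± 0.313. No neighbours in that order overlapped between libraries. In untreated libraries of the arsenite table, Ccnb1 was highest at 240.1 ± 0.0354 RPKM and Ccna2 followed at 84.8 ± 0.975, while Ccne1 (59.7 ± 2.26), Ccnd3 (54.8 ± 0.959) and Cdkn1b (52.9 ± 0.391) lay close together. Ccnd1 stood at 13.5 ± 0.610 RPKM there, Cdkn2a at 9.37 ± 0.781, Cdkn2b at 2.41 ± 0.415, Ccne2 at 1.31 ± 0.0501 and Ccnd2 at 0.860 ± 0.0344. No neighbours overlapped there either. In WT libraries with activin A of the Trim33 table, Ccnb1 (267 ± 23.8 RPKM) and Ccne1 (171 ± 2.42) led, followed by Ccnd1 at 98.4 ± 9.08, Ccna2 at 88.8 ± 1.76 and Ccnd3 at 56.1 ± 17.8. Ccnd2 (12.5 ± 2.70 RPKM), Cdkn1b (10.8 ± 2.79) and Cdkn2a (8.47 ± 2.08) followed, and in that order each overlapped its neighbour. Ccne2 (6.27 ± 0.694 RPKM) and Cdkn2b (2.82 ± 1.18) were lowest. The tables were normalised separately, so these differences in level between tables were not tested.

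Pml KO cells held more transcript of both INK4 genes and less of 3 cyclins than wild-type cells. Cdkn2b rose about 5-fold and Cdkn2a about 2.16-fold, while Ccnd2 fell to 0.548 of its wild-type mean and Ccne1 to 0.764. All 10 members passed the filter on low values. Of these, 2 rose, 4 fell and 4 did not pass the test (limma, adjusted p under 0.05 over 11648 genes), where 35.5% of all genes tested were called, 16.6% higher and 18.9% lower. The median log2 fold change was -0.07 over the members and -0.02 over all genes.

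Among the D cyclins, Ccnd2 read 5.50 and 5.56 FPKM in Pml KO libraries, against 10.1 and 10.0 FPKM in wild type. Its log2 fold change on the log2(FPKM + 1) scale was -0.76 ± 0.08 (SE, limma adjusted p = 1.68e-04). Ccnd3, the most abundant D cyclin in this table, read 170 and 165 FPKM in Pml KO libraries and 202 and 190 in wild type, a change of -0.22 ± 0.05 (limma adjusted p = 0.00965). The Ccnd2 and Ccnd3 groups did not overlap, as for 69.4% of all genes tested in this comparison. The Ccnd3 call was lost without Pml KO replicate 2 (adjusted p = 0.0556), with quantile normalization (adjusted p = 0.0541) and without the variance trend (adjusted p = 0.0553). Ccnd1 read 58.4 and 61.7 FPKM in Pml KO libraries and 54.8 and 54.6 in wild type, a difference of 0.13 ± 0.05 that did not pass (limma adjusted p = 0.0834) but did with quantile normalization (0.19, adjusted p = 0.0317).

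Ccne1, the cyclin that activates CDK2 at the start of S phase, read 184 and 180 FPKM in Pml KO libraries, against 239 and 238 FPKM in wild type. Both knockout libraries lay well below both wild-type ones, and the change was -0.39 ± 0.04 (SE, limma adjusted p = 3.22e-04). Its relative Ccne2 overlapped between groups, with 4.84 and 5.93 FPKM in Pml KO libraries and 5.12 and 6.37 in wild type (limma adjusted p = 0.661, 95% interval of the log2 difference -0.36 to 0.20). Ccna2 (95.1 ± 1.23 FPKM in Pml KO and 99.9 ± 2.03 in wild type) and Ccnb1 (205 ± 0.991 in Pml KO and 213 ± 6.50 in wild type) did not pass, with log2 differences of -0.07 ± 0.05 and -0.05 ± 0.05. In bulk RNA, fewer cells in a phase of the cycle and less transcript per cell cannot be told apart.

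Of the inhibitors, Cdkn2b read 7.61 and 7.26 FPKM in Pml KO libraries, against 1.71 and 1.26 FPKM in wild type, a change of 1.77 ± 0.11 (SE, limma adjusted p = 1.12e-05). Cdkn2a read 26.3 and 23.2 FPKM in Pml KO libraries and 11.42 and 11.45 in wild type, a change of 1.047 ± 0.076 (limma adjusted p = 2.24e-05). Both INK4 genes were separated from wild type by far more than the spread of either group. Cdkn1b read 12.9 and 14.3 FPKM in Pml KO libraries and 15.9 and 16.8 in wild type, a change of -0.25 ± 0.08 (limma adjusted p = 0.0332). That call was lost without wild-type replicate 2 (adjusted p = 0.101), without Pml KO replicate 1 (adjusted p = 0.224), without the filter on low values (adjusted p = 0.0938) and without the variance trend (adjusted p = 0.0573).

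Of 20 S-phase and E2F target genes in the Pml knockout, 17 fell and none rose, with a median of -0.24 (log2), beside 18.9% lower and a median of -0.02 over all genes. Uhrf1, a reader of hemimethylated DNA, read 111 ± 3.19 FPKM in Pml KO and 164 ± 3.13 in wild type (-0.56 ± 0.05, limma adjusted p = 6.09e-05). The GINS helicase subunit gene Gins2 changed by -0.56 ± 0.05 (limma adjusted p = 1.37e-04), and the thymidine kinase gene Tk1 by -0.56 ± 0.06 (limma adjusted p = 1.50e-04). Of 18 G2 and M phase genes, 1 rose, the kinetochore motor gene Cenpe (0.23 ± 0.07), and 2 fell, the checkpoint kinase genes Bub1b (-0.21 ± 0.05) and Bub1 (-0.19 ± 0.06), with a median of -0.04. The lists were not tested against each other. Among 13 pocket protein and E2F genes, 4 fell and 2 rose, with E2f2 at -1.11 ± 0.10, the E2F partner gene Tfdp1 at -0.40 ± 0.05 and E2f1 at -0.39 ± 0.06.

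None of the 4 CDK genes Cdk1, Cdk2, Cdk4 and Cdk6 passed in the Pml knockout (limma, adjusted p from 0.0793 to 0.714), and 1 of them, Cdk1, had an unadjusted p under 0.05. With quantile normalization 1 of the 4 was called higher. Over all genes tested, 16.6% were called higher and 18.9% lower, and the counts of the lists below stand beside these shares. Of 4 other CDK inhibitors tested (Cdkn2c was under the filter), Cdkn1a, a p53 target, rose by 1.21 ± 0.06 on the log2 scale (limma adjusted p = 2.36e-06). Among 13 upstream regulators, Mdm2 rose (0.74 ± 0.06), while the Polycomb methyltransferase gene Ezh2 (-0.25 ± 0.05) and Myc (-0.25 ± 0.05) were among 4 that fell. Of 16 genes tested that control cyclin stability or CDK activity, 2 fell, Pkmyt1 (-0.54 ± 0.09) and Skp2 (-0.24 ± 0.05), which encodes a ubiquitin ligase subunit that targets KIP1. Neither of 2 other cyclin genes tested, Ccnb2 and Ccnf, passed (limma, adjusted p of 0.216 and 0.768), at unadjusted p above 0.05, and Ccna1 and Ccnb3 were under the filter. By trimmed-mean scaling and by quantile normalization 16 of the 20 S-phase genes were lower. Markers of other cell types differed in the same libraries. Over whole lists, trophectoderm genes summed to 696 to 705 FPKM in Pml KO and 36.4 to 39.0 in wild type, and fibroblast and smooth muscle genes to 535 to 565 FPKM in Pml KO and 106 to 108 in wild type. Mesoderm genes summed to 21.4 to 21.7 FPKM in Pml KO and 4.41 to 4.43 in wild type, and two-cell-like genes to 14.0 to 15.1 in Pml KO and 3.23 to 3.36 in wild type. Primitive endoderm genes summed to 3.34 to 3.36 FPKM in Pml KO and 7.51 to 7.99 in wild type, and neural genes to 97.4 to 98.2 in Pml KO and 102 to 104 in wild type. Among genes that reached 1 FPKM in both groups, 4 of 4 trophectoderm, 3 of 4 fibroblast, 2 of 2 mesoderm, 1 of 1 two-cell-like and 1 of 3 neural genes rose. The fibroblast gene Thy1 and 2 neural genes fell, and the 1 primitive endoderm gene did not pass. Eomes is in both the trophectoderm and the mesoderm list and is counted in each. The two-cell-like gene, Zscan4a, read 0.967 and 1.04 FPKM in wild type, close to the filter. Another 3 trophectoderm, 3 fibroblast, 1 mesoderm and 3 two-cell-like genes passed the filter through Pml KO alone and 2 primitive endoderm genes through wild type alone, so the filter fixed their direction. No gene of these lists was at 0 in every library, and their part in the cyclin and inhibitor results was not tested. The summed level of 8 ES cell markers was 7693 to 7948 FPKM in Pml KO and 8074 to 8101 in wild type.

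Arsenite for 2 h gave higher levels of both INK4 genes and Ccnd3 and lower levels of Ccnd1, Ccne1 and Cdkn1b than in untreated cells. Cdkn2b rose about 3.50-fold and Cdkn2a about 2.67-fold, while Ccnd1 fell to 0.511 of its untreated mean. Of the 10 members, 9 passed the filter, of which 4 rose, 4 fell and 1 did not pass. The background was high, since 67.7% of 12136 genes tested were called, 40.7% higher and 27.0% lower, so the share of members called is not set apart from it. The balance of directions over all genes also depended on scaling, with 60.1% of calls higher as deposited, 48.5% after trimmed-mean scaling and 49.0% after quantile normalization. The median log2 fold change was 0.01 over the members and 0.08 over all genes.

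Ccnd1 read 7.35 and 6.42 RPKM with arsenite, against 13.9 and 13.0 RPKM untreated, a log2 change of -0.88 ± 0.08 (SE, limma adjusted p = 5.07e-05). Ccnd3 went the other way, at 70.0 and 70.2 RPKM with arsenite and 54.1 and 55.5 untreated, a change of 0.35 ± 0.04 (limma adjusted p = 1.27e-04). The groups did not overlap for either D cyclin, as for 84.5% of all genes tested. Ccnd2 stayed below the filter, with 0.952 and 0.879 RPKM with arsenite and 0.835 and 0.884 untreated, about 256 to 281 reads per library, and its groups overlapped.

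Ccne1 read 47.9 and 45.2 RPKM with arsenite, against 61.3 and 58.1 RPKM untreated, a change of -0.35 ± 0.05 (SE, limma adjusted p = 4.08e-04). Ccne2 was low and overlapped between groups, at 1.46 and 1.19 RPKM with arsenite and 1.27 and 1.34 untreated (limma adjusted p = 0.959, 95% interval of the log2 difference -0.24 to 0.26). Ccna2 (92.6 ± 0.0806 RPKM with arsenite and 84.8 ± 0.975 untreated) passed at 0.12 ± 0.04, and Ccnb1 (223 ± 0.908 with arsenite and 240.1 ± 0.0354 untreated) passed at -0.11 ± 0.03 (limma adjusted p = 0.0157 and 0.0241). Neither call held: Ccna2 was lost with trimmed-mean scaling (0.02, adjusted p = 0.585), Ccnb1 turned to 0.04 with quantile normalization (adjusted p = 0.316), and both were lost without untreated replicate 1 or arsenite replicate 2 (adjusted p from 0.0565 to 0.0958). Ccna2 was also lost without arsenite replicate 1 (adjusted p = 0.0519) and Ccnb1 without untreated replicate 2 (adjusted p = 0.0966), and both were lost without the variance trend (adjusted p = 0.0745 and 0.105).

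Cdkn2b read 8.44 RPKM in both arsenite libraries, against 2.11 and 2.70 RPKM untreated, a change of 1.47 ± 0.10 (SE, limma adjusted p = 1.32e-05). These values correspond to about 548 and 561 reads with arsenite and 142 and 179 untreated, from the length of the RefSeq-matched transcript. Cdkn2a read 25.7 and 24.4 RPKM with arsenite and 9.92 and 8.82 untreated, a change of 1.33 ± 0.07 (limma adjusted p = 3.42e-06). Cdkn1b read 40.37 RPKM in both arsenite libraries and 52.7 and 53.2 untreated, a change of -0.38 ± 0.04 (limma adjusted p = 9.13e-05). The INK4 genes rose and Cdkn1b fell.

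**Figure D2:**
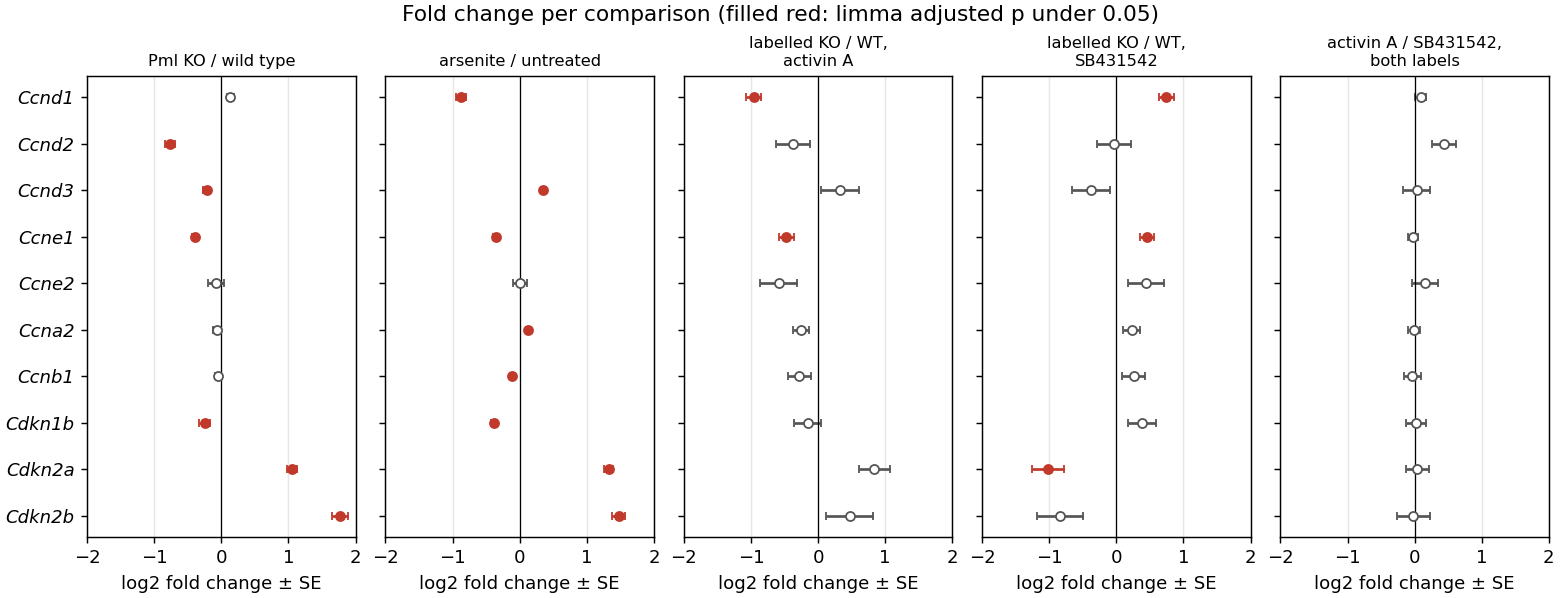
Log2 fold change of each member with its standard error in 5 comparisons, on the log2(value + 1) scale, filled red where limma's adjusted p was under 0.05. Cdkn2a and Cdkn2b lie farthest to the right for Pml KO and for arsenite, Ccne1 is below 0 in the first 3 panels, Ccnd1, Ccne1 and Cdkn2a lie on opposite sides of 0 in the activin A and SB431542 panels, groups as labelled, and no member is called between activin A and SB431542. Ccnd2 has no point for arsenite because it was under the filter.

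Among the other cell cycle genes with arsenite, 15 of 20 S-phase genes fell and 1 rose, with a median of -0.24 (log2), beside 27.0% lower and a median of 0.08 over all genes. The replicative helicase genes Mcm7 (133 ± 7.65 RPKM with arsenite and 248 ± 2.53 untreated, -0.89 ± 0.05) and Mcm5 (-0.50 ± 0.04) and the gene Gins2 (-0.72 ± 0.05) had the smallest p. By trimmed-mean scaling 16 of these 20 genes were lower, and by quantile normalization 12 were lower and 1 higher. Of 18 G2 and M phase genes, 10 were higher and 3 lower (median 0.15), beside 40.7% higher over all genes. Those with the smallest p were the mitotic kinesin gene Kif20a (0.71 ± 0.04), Ccnb2 (0.43 ± 0.04) and Cenpe (0.58 ± 0.05). The split depended on scaling, with 5 higher and 4 lower after trimmed-mean scaling and 12 higher and 2 lower after quantile normalization.

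Over all genes tested with arsenite, 67.7% were called, 40.7% higher and 27.0% lower, and the counts of the lists below stand beside these shares. All 5 other CDK inhibitors were tested with arsenite, and 4 rose while Cdkn1c fell (-0.32 ± 0.08). By quantile normalization 3 were higher and 1 lower. The phosphatase gene Cdkn3 rose by 1.03 ± 0.08, Cdkn2c by 0.56 ± 0.14, Cdkn1a by 0.46 ± 0.05 and the INK4 relative Cdkn2d by 0.32 ± 0.06. Cdk2, the partner of cyclin E, fell by 0.52 on the log2 scale (limma adjusted p = 1.04e-04) and Cdk1 fell by 0.16. Cdk4 (0.09 ± 0.04) and Cdk6 (0.17 ± 0.07) did not pass, though quantile normalization called 1 of the 4 CDK genes higher and 2 lower. Of 13 pocket protein and E2F genes, 5 rose and 5 fell, with Rb1 at 0.99 ± 0.06, the repressive E2F gene E2f4 at -0.80 ± 0.05 and E2f6 at 0.49 ± 0.06. Of 13 upstream regulators, 7 fell and 3 rose, among them Mycn at -1.35 ± 0.05, Mdm2 at 0.97 ± 0.04 and Ezh2 at -0.42 ± 0.04. Trimmed-mean scaling gave 3 higher and 6 lower for the pocket protein list and 2 higher and 7 lower for the upstream list. Quantile normalization gave 3 higher and 6 lower for the pocket protein list and 2 higher and 5 lower for the upstream list. Of 16 genes of cyclin stability and CDK activity, 6 fell and 4 rose (8 and 3 by trimmed-mean scaling, 6 and 3 by quantile normalization). Among them were Cks2 at -0.49 ± 0.04, Fbxo5 at -0.50 ± 0.04 and the CDK phosphatase gene Cdc25b at 0.89 ± 0.09. Of the other cyclin genes, Ccnb2 and Ccnf (0.46 ± 0.04) rose. Ccna1 passed the filter through arsenite alone (1.69 and 1.84 RPKM with arsenite, 0.260 to 0.686 untreated), and Ccnb3 was under it. Of 8 ES cell markers 7 fell in the same libraries (summed level 2723 to 2837 RPKM with arsenite and 5178 to 5248 untreated). The trophectoderm list summed to 122 to 126 RPKM with arsenite and 36.8 to 37.2 untreated, where 4 of 4 genes that reached 1 RPKM in both groups rose and 2 more passed the filter through arsenite alone. Fibroblast and smooth muscle genes summed to 159 to 162 RPKM with arsenite and 68.1 to 68.5 untreated, with 3 of 4 tested higher and 1 lower. Mesoderm genes summed to 14.2 to 16.1 RPKM with arsenite and 4.16 to 4.65 untreated. Primitive endoderm genes summed to 14.7 to 15.8 RPKM with arsenite and 7.94 to 8.28 untreated, and neural genes to 36.4 to 40.7 and 51.6 to 52.8. Among genes of these lists not under 1 RPKM throughout either group, 1 of 1 mesoderm, 1 of 2 primitive endoderm and 1 of 3 neural genes rose. That mesoderm gene was Eomes (10.8 RPKM with arsenite and 2.31 untreated on average), which is also in the trophectoderm list and counted there. In the neural list 2 fell. Over all 4 neural genes tested, quantile normalization gave 0 higher and 3 lower. The part of any of these lists in the cyclin results was not tested.

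**Figure D3:**
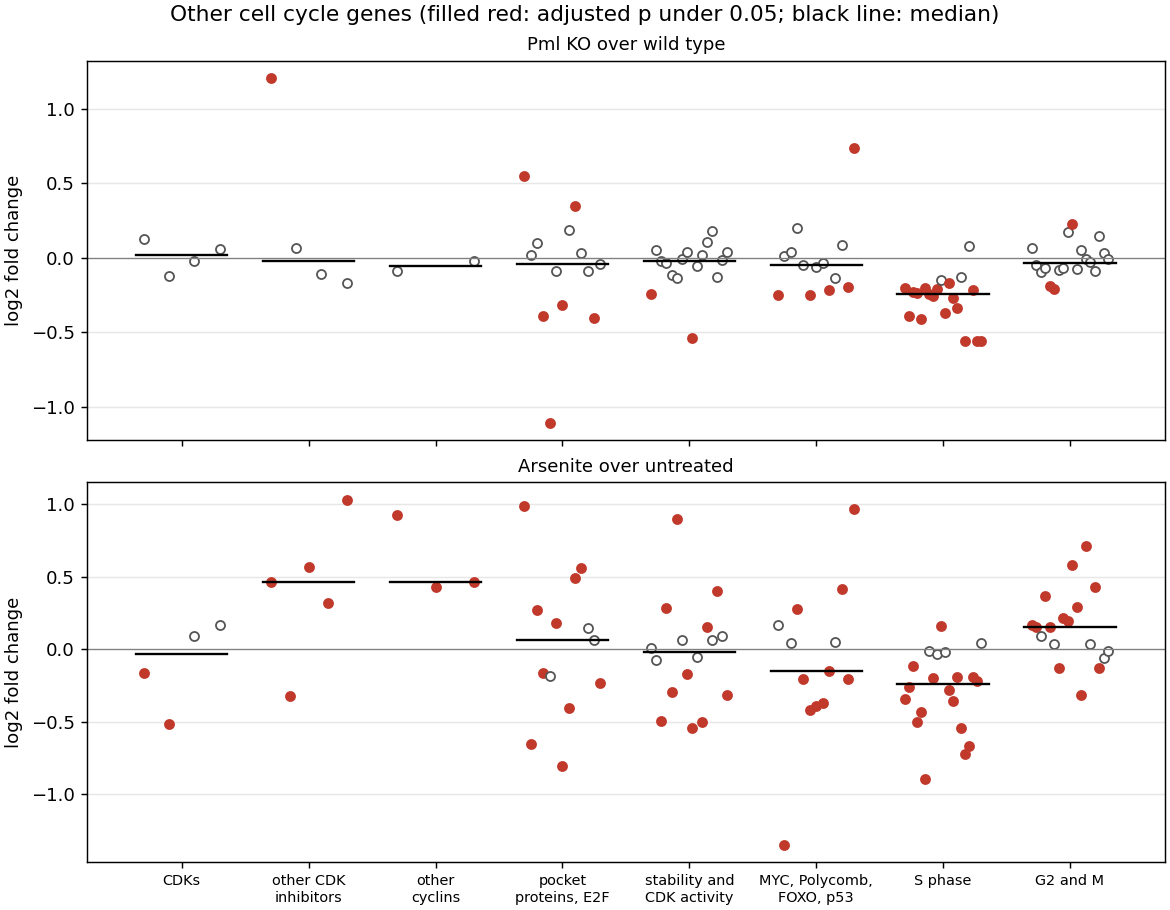
Log2 fold change of each tested gene of 8 lists of other cell cycle genes, filled red where adjusted p was under 0.05, with the list median as a black line, for Pml KO over wild type and for arsenite over untreated. The S-phase list lies mostly below 0 in both panels, with medians of -0.24 and -0.24, while the G2 and M phase list has medians of -0.04 and 0.15.

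Under activin A, Ccnd1 and Ccne1 were lower in the libraries labelled Trim33 KO than in those labelled WT, and Cdkn2a was higher without passing the test. These libraries also differed in Eif2s3y, so another difference between the lines cannot be told apart from the knockout. All 10 members passed the filter. Of these, 2 fell, none rose and 8 did not pass (limma over 11914 genes), where 9.43% of all genes tested were called, 6.61% higher and 2.82% lower. The median log2 fold change was -0.26 over the members and 0.01 over all genes. Of all calls, 70.1% were higher as deposited and 57.9% after quantile normalization. Leaving out any 1 of the 4 activin A libraries gave 146 to 270 genes higher and 39 to 85 lower, where all libraries gave 787 and 336.

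Ccnd1 read 48.9 and 51.0 RPKM in KO libraries with activin A, against 105 and 91.9 RPKM in WT libraries with activin A, a log2 change of -0.96 ± 0.12 (SE, limma adjusted p = 0.00258). With SB431542 it read 89.1 and 82.1 RPKM in the libraries labelled KO and 51.1 and 50.0 in those labelled WT, a change of 0.75 ± 0.12 as labelled (limma adjusted p = 0.00737). The 4 libraries with low Trim33 thus held the 4 lowest Ccnd1 values, 48.9 to 51.1 RPKM, whatever their label. How many of all genes split in this way was not counted. Groups did not overlap for 60.7% of all genes tested under activin A and 49.2% under SB431542. The difference between the genotype effects under activin A and SB431542, as labelled, was -1.71 ± 0.16 (limma adjusted p = 2.56e-04). By that test 26.3% of all genes tested were called.

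Ccne1 read 123.2 and 123.0 RPKM in KO libraries with activin A, against 173 and 169 RPKM in WT libraries with activin A, a change of -0.47 ± 0.10 (SE, limma adjusted p = 0.0281). That call was lost when any 1 of the 4 libraries compared was left out (adjusted p from 0.137 to 0.165), with log2 values of -0.48 to -0.46, and without the variance trend (adjusted p = 0.0517). With SB431542 it read 173.0 and 172.6 RPKM in the libraries labelled KO and 121 and 129 in those labelled WT, a change of 0.46 ± 0.10 as labelled (limma adjusted p = 0.0284). This second call was lost when any 1 of the 8 libraries was left out (adjusted p from 0.0572 to 0.152), and in a fit of the SB431542 libraries alone (adjusted p = 0.139). As with Ccnd1, the 4 lowest values belonged to the libraries with low Trim33, and the share of all genes doing so was not counted.

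Cdkn2a read 16.7 and 14.8 RPKM in KO libraries with activin A, against 9.94 and 6.996 RPKM in WT libraries with activin A, a difference of 0.84 ± 0.23 (SE, limma adjusted p = 0.0576). It passed in a limma fit of the activin A libraries alone (adjusted p = 0.0167), where the spread of the SB431542 libraries does not enter. Exchanging the genotype labels under SB431542 would not change the activin A result of the joint fit. With SB431542 it read 9.80 and 5.77 RPKM in the libraries labelled KO and 17.0 and 15.6 in those labelled WT, a change of -1.01 ± 0.23 as labelled (limma adjusted p = 0.0306). That call was lost without KO replicate 2 (-0.68, adjusted p = 0.0952) and without WT replicate 1 or 2 of the SB431542 libraries (adjusted p = 0.136 and 0.0877), as well as without the filter on low values (adjusted p = 0.0754). The groups did not overlap under either treatment, as for 60.7% of all genes tested under activin A and 49.2% under SB431542. Cdkn2b had wide replicates, with 6.68 and 2.49 RPKM in KO libraries with activin A and 1.99 and 3.66 in WT libraries, so the groups overlapped (limma adjusted p = 0.438). With SB431542 it read 2.13 and 2.55 RPKM in the libraries labelled KO and 5.13 and 4.81 in those labelled WT, which did not pass (-0.84 ± 0.35, limma adjusted p = 0.169).

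**Figure D4:**
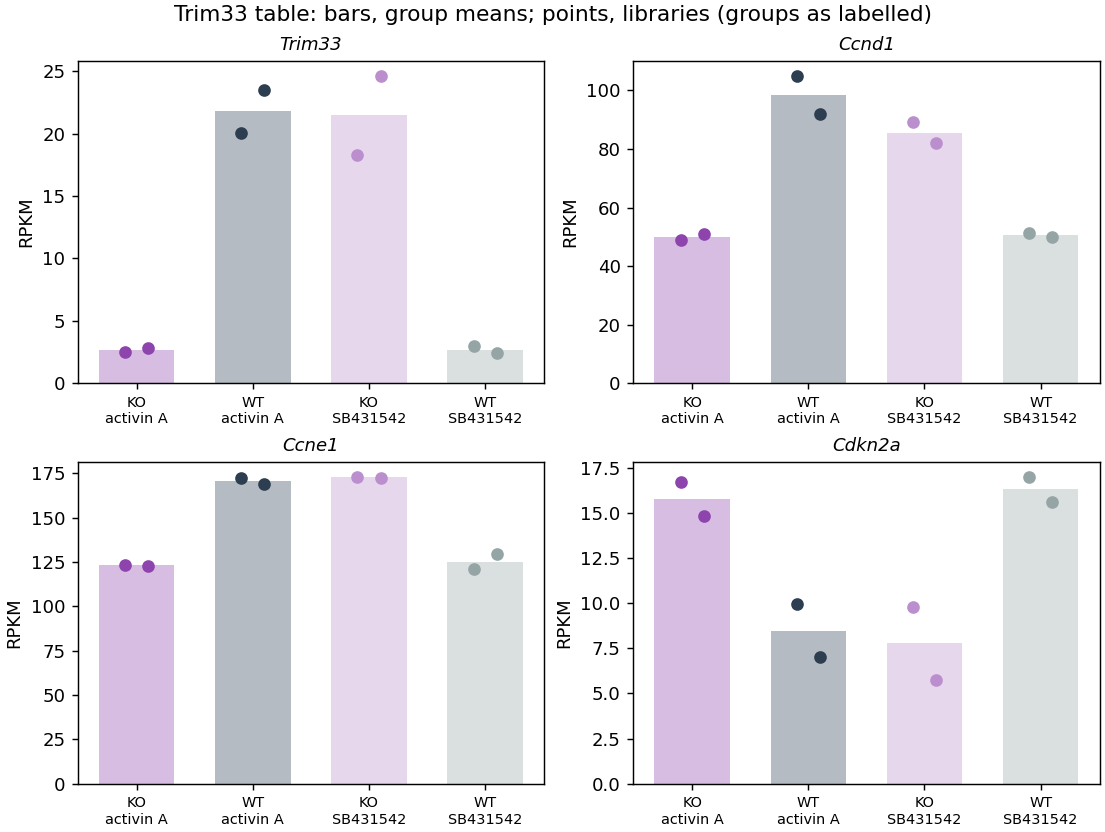
RPKM of Trim33, Ccnd1, Ccne1 and Cdkn2a in the 8 libraries of the Trim33 table (points) with the group mean (bars), groups as labelled. Ccnd1 and Ccne1 are low and Cdkn2a is high in the 4 libraries where Trim33 lies between 2.44 and 2.94 RPKM, which are labelled KO under activin A and WT under SB431542. The share of all genes that split in this way was not counted.

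The other members did not pass between genotypes under activin A. Ccnd3 differed widely within groups, at 76.0 and 62.8 RPKM in KO libraries and 68.7 and 43.6 in WT libraries, and overlapped between them. Ccnd2 (9.30 ± 0.126 RPKM in KO and 12.5 ± 2.70 in WT), Ccne2 (3.92 ± 1.33 in KO and 6.27 ± 0.694 in WT) and Ccna2 (74.5 ± 6.05 in KO and 88.8 ± 1.76 in WT) had adjusted p of 0.403, 0.213 and 0.241 by limma. Ccnb1 (221 ± 33.5 RPKM in KO and 267 ± 23.8 in WT) and Cdkn1b (9.49 ± 1.83 in KO and 10.8 ± 2.79 in WT) had adjusted p of 0.362 and 0.679 by limma. Between the KO activin A replicates 60.4% of genes differed by more than 10%, and these misses do not show that the levels were alike. The 95% interval for Cdkn1b, for example, ran from -0.61 to 0.30 on the log2 scale.

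Between the genotype labels under SB431542, 2 members were called higher and 1 lower, Ccnd1, Ccne1 and Cdkn2a as given above, where 9.56% of all genes tested were called, 3.01% higher and 6.55% lower. Of all calls there, 31.5% were higher as deposited and 41.7% after quantile normalization. In a fit of the SB431542 libraries alone, Ccnd1 was the member still called higher and Cdkn2a the member called lower.

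Of the other cell cycle genes under activin A, none of 20 S-phase genes, none of 18 G2 and M phase genes and none of 4 CDK genes passed in limma between KO and WT, with 8, 6 and 2 of them at an unadjusted p under 0.05. With quantile normalization 1 G2 and M phase gene was called higher and 1 CDK gene lower. Over all genes tested, 6.61% were called higher and 2.82% lower. The CDK inhibitor gene Cdkn1c, an imprinted relative of Cdkn1b, rose (1.28 ± 0.15, limma adjusted p = 0.00235) and was -1.45 ± 0.15 under SB431542 as labelled. The Polycomb subunit gene Suz12 read 169 ± 16.4 RPKM in KO and 89.6 ± 2.26 in WT (0.90 ± 0.14, limma adjusted p = 0.00670). Among pocket protein and E2F genes, E2f6 fell (-0.62 ± 0.14), and Pkmyt1, which encodes an inhibitory kinase of CDK1, rose (0.75 ± 0.15). Rbl2 was called higher, but was under 1 RPKM in both WT libraries, so it passed the filter through other libraries. Markers of the two-cell-like state summed to 5.85 to 14.4 RPKM in KO and 0 to 0.114 in WT, and all 5 genes were under 1 RPKM in both WT libraries, so a count of those called is not read. Neural genes summed to 134 to 144 RPKM in KO and 74.9 to 75.2 in WT. Of 4 neural genes tested, 1 was called higher, Tubb3 (1.17 ± 0.14), and 1 lower, Sox1, which was under 1 RPKM in both KO libraries. The median log2 change of that list was -0.24. Trophectoderm genes summed to 166 to 240 RPKM in KO and 132 to 177 in WT, with 1 of 7 tested called higher and 0 lower. The part of these lists in the cyclin results was not tested.

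Activin A was also set against SB431542 as a mean over both genotype labels, which does not depend on which genotype label belongs to which library. None of the 10 members passed in limma, and 1 had an unadjusted p under 0.05, where 0.109% of all genes tested were called, all of them higher. That member was Ccnd2, at 9.21, 9.39, 10.6 and 14.4 RPKM with activin A and 5.48, 10.3, 8.33 and 7.22 with SB431542, a log2 difference of 0.44 ± 0.18 (SE, unadjusted p = 0.0397 and adjusted p = 0.9996 by limma). The values overlapped between treatments. For Ccnd1 the difference was 0.09 ± 0.08 and for Ccne1 -0.02 ± 0.07, with 95% intervals of -0.10 to 0.27 and -0.19 to 0.15. Cdkn2b, described in other cells as a target of TGF-beta signalling, differed by -0.02 ± 0.25, with an interval of -0.58 to 0.54.

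Over all 16 libraries, with log2(value + 1) centred on the mean of each table, 9 members gave 36 pairs (Ccnd2, under the filter with arsenite, was left out), with Pearson correlations from -0.91 to 0.83. Of the extremes, Ccne1 and Cdkn2a had a correlation of -0.91 and Cdkn1b and Cdkn2a of -0.87, while Cdkn2a and Cdkn2b had 0.83 and Ccnd1 and Ccne1 0.82. Pairs such as Ccnd3 and Ccnb1 (-0.05) or Ccnb1 and Cdkn1b (0.12) had values near 0. These describe 16 libraries that share groups and tables and carry no test. Among 10868 genes tested in all 3 tables, the profile of Ccnd1 was closest to Ankrd35 (0.97), Prps1 (0.97) and Mtss1 (0.96). That of Ccne1 was closest to Xrcc6 (0.98), Tmem183a (0.97) and Slc27a2 (0.97), and that of Cdkn1b to Trh (0.92), Slc31a1 (0.91) and Zfp326 (0.91).

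Counting could mix some members with other genes. Of the 50-base words of the Ccnb1 transcript, 42.1% also occur in pseudogene or related transcripts such as Ccnb1-ps, and 6.93% of those of Ccnd3 occur in Ccnd3-ps, so reads can be shared. Ccnd1, Ccnd2, Ccnd3, Ccne2 and Ccna2 overlap an annotated gene on the opposite strand, and the sources used here do not say if strand was used in counting. Cdkn1b, Cdkn2a, Cdkn2b and Ccne1 had neither shared words nor overlapping genes.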

How the data were processed

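Total RNA of mouse ES cells was sequenced after Illumina TruSeq preparation, per the labels' protocols. Tools listed without roles, per the submitters' processing notes, are Bowtie2 2.3.3, featureCounts 2.0.1, SAMtools 1.9, FastQC 0.11.5 and DESeq2, with the build mm10. The authors deposited FPKM values in the Pml table and RPKM values in the arsenite table. The Trim33 table names no unit, and its deposited values behave as RPKM: low values of 1531 single-exon genes came out within 0.05 of whole reads in 91.8% to 96.9% of cases, as in the arsenite table (93.1% to 96.9%), which gave the depths. Samples were assigned to columns by name. The untreated columns and titles use different letters, so those 2 columns were taken as the group without replicate identity. Numbers of untreated replicates given here are column numbers.

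After 27 date-like names per table were left out, genes reaching 1 in 2 or more libraries were tested on log2(value + 1), which understates the change of low genes. The test was limma 3.58.1 in R 4.3.3 (lmFit, eBayes with trend, two-sided, Benjamini-Hochberg over every tested gene, called under an adjusted p of 0.05), within each table, with the 4 groups of the Trim33 table fitted together. Values are means ± SD over 2 libraries, and fold changes are given with standard errors. No count model was used, since these are not counts. The Pml and arsenite fits were checked on simulated data with 200 changed genes, and the Trim33 fits were not. Alternatives were a pseudocount of 0.1, no filter, trimmed-mean scaling, quantile normalization, no variance trend, each library left out, the replicate number as a block, and the compared groups alone.

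The members, lists and tests were chosen with earlier results of these data known. Named genes are the 10 members, Pml, Trim33, Eif2s3y, up to 3 called genes of a pathway list with the smallest p, uncalled genes only from lists under 6, up to 3 of a marker list, and the 3 profiles most like Ccnd1, Ccne1 and Cdkn1b. The promoters of Cdkn2a, Cdkn2b and Ccne1, the library-by-library remarks, Thy1, Cdkn2c, Eomes and Zscan4a were chosen after values were seen. Annotation is GENCODE on GRCm38, the assembly of mm10. Python 3.11.15, pandas 2.3.3 and matplotlib 3.10.9 were used besides R. With 2 libraries per group, standard errors depend on limma's pooling of variance across genes.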

Additional observations from a re-analysis of the deposited data

Results flagged for a closer look

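Of the 10 members, 3 showed an effect of the Trim33 genotype label that differed between activin A and SB431542 by a test of the difference itself (limma, over 11914 genes, of which 26.3% were called). The share of members called is not set apart from that over all genes. The test combines the genotype differences already given for each treatment, so it is not a separate result. As labelled, KO minus WT under activin A minus the same under SB431542 was -1.71 ± 0.16 for Ccnd1 (SE, log2, adjusted p = 2.56e-04), -0.93 ± 0.15 for Ccne1 (adjusted p = 0.00269) and 1.85 ± 0.33 for Cdkn2a (adjusted p = 0.00461). Of the calls over all genes, 61.5% were positive as deposited and 49.5% after quantile normalization. The sign of each effect turned with the treatment, and the Trim33 transcript turned in the same libraries (-5.23 ± 0.25). Whether the genotype effect itself depends on treatment cannot be told apart from the labels that Trim33 contradicts under SB431542.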

How the results depend on the processing

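Under every alternative run, the calls for Ccnd2, Ccne1, Cdkn2a and Cdkn2b in Pml KO, for Ccnd1, Ccnd3, Ccne1, Cdkn1b, Cdkn2a and Cdkn2b with arsenite, and for Ccnd1 between Trim33 labels kept their direction and side of the threshold. Quantile normalization turned Ccnb1 with arsenite to 0.0355 (log2). Without the filter, genes called lower were 1325 in Pml KO (2199 with it), genes called higher 233 under SB431542 (359) with 0 members lower, and activin A over SB431542 gave 6 higher and 2 lower (13 and 0). Without the variance trend, 2 members were lower in Pml KO (4 with it), 1 lower with Trim33 KO under activin A (2) and 1 higher under SB431542 (2). Fits of the compared groups alone gave 1203 genes higher, 649 lower and 1 member higher under activin A (787, 336 and 0), and 160 higher, 448 lower and 1 member higher under SB431542. These causes were not tested. The replicate numbers are not said to mark a shared culture, and same-numbered libraries deviated together with correlations of -0.14 to 0.60 in the Trim33 table, 0.02 in the Pml table and -0.04 in the arsenite table. The highest joined groups alike in Trim33 level. They were 0.60 for KO with activin A and WT with SB431542, and 0.37 for KO with SB431542 and WT with activin A, as labelled. A pairing within such groups was not modelled. With the replicate number as a block, 533 genes were lower under activin A, 1 member (Cdkn2a, adjusted p = 0.0207) was higher there, 23 genes were higher with activin A than with SB431542, and no other member's call changed.

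Leaving out 1 library at a time gave, in Pml KO, 1302 to 1905 genes higher and 1683 to 1990 lower, with 2 members higher and 3 to 4 lower. With arsenite it gave 3659 to 4671 higher and 2761 to 2942 lower, with 3 to 4 members in each direction. Trim33 KO under activin A had 146 to 1013 higher and 39 to 533 lower, with 0 to 1 members higher and 1 to 2 lower. Each of the 4 activin A libraries left out gave 270 or fewer higher, and leaving out KO replicate 1 or 2 of SB431542 gave 533 and 527 lower. Under SB431542 the ranges were 78 to 396 higher and 216 to 640 lower, with 1 member higher and 0 to 1 lower, with 225 or fewer higher without KO replicate 2 or any of the 4 WT libraries. The treatment contrast had 7 to 15 higher and 0 to 1 lower, with 0 members in either direction. The difference between genotype effects had 1221 to 1879 higher and 632 to 1516 lower, with 1 to 2 members higher and 2 to 3 lower. A group left with 1 library is assumed to vary like the others. Depth limits the low members: about 92 reads was the lowest value of Cdkn2b, and the Pml table's depth is unknown.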

Other observations

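Levels of the same member differed between control groups of separately normalised tables, which were not tested against each other. Ccnd2 averaged 10.1 FPKM in wild type of the Pml table, 0.860 RPKM in untreated cells of the arsenite table and 12.5 RPKM in WT with activin A of the Trim33 table. Cdkn1b averaged 16.4 FPKM, 52.9 RPKM and 10.8 RPKM in the same groups, and Myc 46.5 FPKM, 7.45 RPKM and 56.8 RPKM.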
